A study of Menidia menidia with 24 samples.

Results

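Myoglobin (MYG, mme18570) and cytoglobin-2 (CYGB2, mme14487) are the 2 tissue globins described here, of 20210 annotated genes in the counts and 17262 that passed the filter on low counts. Both passed it. They were taken by their transcript IDs. Both had been selected on their differential expression between CH and CC and between HH and CC larvae, so the values of those 2 comparisons are given below as a description without a test.

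The samples were 24 whole wild type larvae of the Atlantic silverside, Menidia menidia, an estuarine fish, each sequenced singly at 19 days post-fertilization (dpf) after rearing at 20 °C. The first letter of a group is the parents' treatment and the second the offspring's, with C for control and H for combined hypoxia and acidification (HypOA). Each group held 6 larvae. CC larvae had control parents and control rearing, CH larvae control parents and HypOA rearing, HC larvae HypOA parents and control rearing, and HH larvae HypOA in both generations. According to the labels, control rearing meant 100% dissolved oxygen with 600 µatm pCO2 and HypOA rearing meant 35% dissolved oxygen with 2500 µatm pCO2. The labels give no such levels for the parents. In the study, HypOA parents were exposed before spawning at night only, with control conditions by day, whereas offspring conditions were static. The study's methods give other set points for these treatments.

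Globins are heme proteins that bind oxygen reversibly. Myoglobin stores oxygen in heart and skeletal muscle and eases its diffusion through the muscle cell. Cytoglobin is found in many tissues and has been tied to nitric oxide turnover and to protection from reactive oxygen. In mammals it is known from fibroblast-like cells, whereas fishes have a pair of cytoglobins, of which cytoglobin-2 is mostly neural in zebrafish.

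Between 11688851 and 16120500 reads were counted on transcripts per larva. RNA came from whole larvae, so fewer cells of a type and less RNA per cell cannot be told apart, and the study found HypOA-reared larvae to be smaller. In the study each sequenced larva came from the same rearing container as another of its group, and the labels do not name the containers. A group thus held fewer independent units than larvae. The parents of each treatment formed a single pool, so parental treatment and pool cannot be told apart. The p values below measure the spread between larvae only and treat the 6 larvae of a group as independent. Transcript lengths were not used here, so levels, in counts per 1000000 counted reads scaled by TMM factors (CPM), are compared between larvae and not between transcripts.

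MYG was a transcript of few reads that was higher in both groups reared under HypOA. In CC larvae its counts were 27, 5, 1, 0, 3 and 17 reads, or 0 to 1.57 CPM with a median of 0.320. In HC larvae it ranged from 0.0833 to 2.32 CPM with a median of 0.642. Each control-reared group thus held larvae with almost no MYG reads beside larvae with 17 or more. In CH larvae MYG ranged from 0.920 to 5.49 CPM (median 3.095, 11 to 61 reads), and in HH larvae from 1.19 to 5.18 CPM (median 2.55, 17 to 73 reads). All larvae of both HypOA-reared groups lay above the medians of both control-reared groups, but the lowest of them fell inside the control range. Every pair of groups overlapped. The group means were 0.636±0.718 CPM in CC, 0.986±0.989 in HC, 3.03±1.66 in HH and 3.09±1.53 in CH (mean±s.d., n=6 each). Of the steps between neighbours in this order, that from HC to HH was the largest. Its test, given below, is not independent of the selection.

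CYGB2 was also lowest in CC, followed by HC, and higher in both groups reared under HypOA. It ranged from 2.61 to 7.35 CPM in CC larvae (median 4.64, 45 to 82 reads) and from 5.60 to 7.50 CPM in HC larvae (median 6.54, 72 to 90 reads). All HC larvae lay above the CC median, and 1 of them lay above the highest CC larva. In CH larvae it ranged from 5.76 to 10.7 CPM (median 8.26, 69 to 148 reads) and in HH larvae from 6.18 to 10.3 CPM (median 8.81, 100 to 147 reads). Here too every pair of groups overlapped. Of all genes, 0.938% had groups without overlap between HH and HC, 0.747% between HC and CC, 1.45% between HH and CH, 2.87% between CH and CC, 3.76% between HH and CC and 1.44% between CH and HC. The means were 4.94±1.70 CPM in CC, 6.52±0.686 in HC, 8.26±1.93 in CH and 8.73±1.50 in HH. Of the neighbours in this order, CH and HH, both used in the selection, showed no detectable difference. CC and HC are compared below, and HC and CH were not tested.

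**Figure D1:**
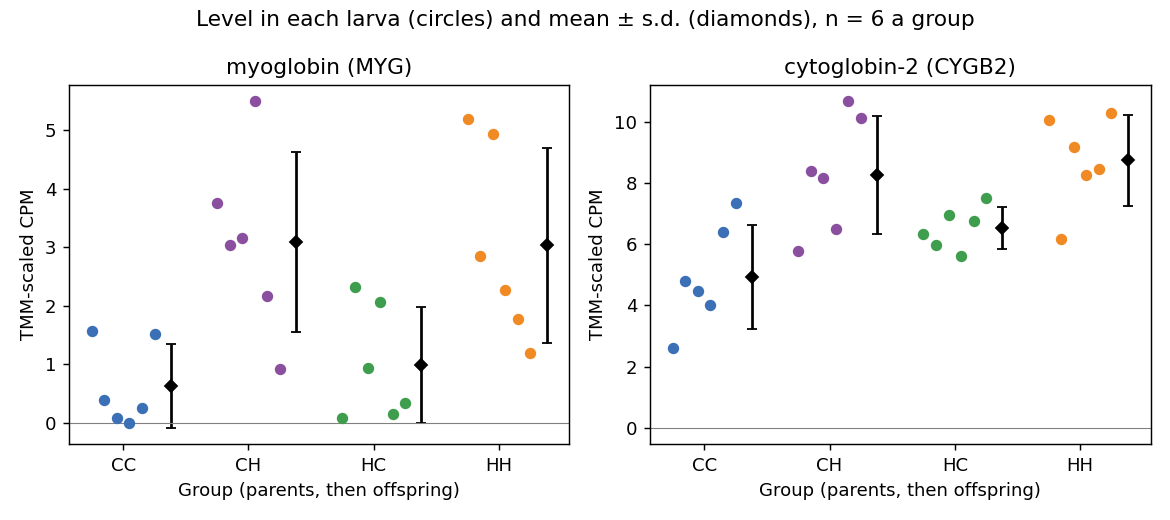
TMM-scaled CPM of MYG (left) and CYGB2 (right) in each of the 24 larvae by group, with diamonds and bars for mean±s.d. (n=6 per group). MYG means were 0.636 and 0.986 CPM in the control-reared groups CC and HC and 3.09 and 3.03 CPM in CH and HH, and for both transcripts every pair of groups overlapped.

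In the comparisons that chose the transcripts, MYG was 4.66-fold higher in CH than in CC larvae (95% interval 1.80 to 12.07) and 4.58-fold higher in HH than in CC larvae (1.78 to 11.8). CYGB2 was 1.68-fold (1.27 to 2.24) and 1.78-fold (1.34 to 2.36) higher. The highest CC larva was exceeded by 5 of 6 CH and 5 of 6 HH larvae in MYG, and by 4 of 6 CH and 5 of 6 HH larvae in CYGB2. Both transcripts were called in both comparisons, where 9.25% and 8.81% of all genes were called, and nothing is read from this because the calls chose the transcripts. All CC larvae are shared by these comparisons. Against the HC larvae, CH larvae were 3.10-fold higher in MYG (1.24 to 7.73) and 1.27-fold higher in CYGB2 (0.958 to 1.68).

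How rearing under HypOA related to MYG and CYGB2 in larvae of HypOA parents was tested by comparing HH with HC, although the HH larvae also belong to a comparison that chose the transcripts. MYG was 3.04-fold higher in HH (95% interval 1.225 to 7.56, log2 fold change 1.61, SE 0.64). All 6 HH larvae exceeded the HC median and 3 exceeded the highest HC larva. CYGB2 was 1.34-fold higher (1.013 to 1.77, log2 fold change 0.42, SE 0.20), and 5 of 6 HH larvae exceeded the highest HC larva. The HH larvae were high in a comparison that chose the transcripts, so the values of HH against HC lean towards HH. Their p values are not independent of the selection, and MYG did not pass the filter on low counts in HC and CC larvae alone. As single values both transcripts had p under 0.05 in two-sided exact permutation tests (MYG p=0.0238, CYGB2 p=0.0130). Neither was among the transcripts called over all genes by edgeR's quasi-likelihood test with Benjamini-Hochberg adjustment (MYG FDR=0.473, CYGB2 FDR=0.587), a call that 0.0232% of genes received. Without the adjustment both had p under 0.05, as had 8.24% of all genes. Over the other fits the adjusted p ran from 0.32 to 0.559 for MYG and from 0.299 to 0.624 for CYGB2.

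Between HC and CC larvae, which differed in parental treatment, no difference in MYG was detectable. Both transcripts had been selected on comparisons in which these same CC larvae were low, so the values of HC against CC lean towards HC and their p values are not independent of the selection. It was 1.504-fold higher in HC, but the interval reached from 0.548 to 4.13 (edgeR FDR=0.763, exact permutation p=0.524), and 4 of 6 HC larvae exceeded the CC median. The log2 fold change of 0.59 became 0.149 without HC 2 and 1.15 without CC 1. CYGB2 was 1.33-fold higher in HC (0.997 to 1.77), with all 6 HC larvae above the CC median. Its exact permutation p was 0.0498, its unadjusted edgeR p 0.052 and its edgeR FDR 0.384. In this comparison 0% of genes were called and 13.2% had an unadjusted edgeR p under 0.05, which CYGB2 had not. The CC larva with the least CYGB2, CC 1, was also the most deeply sequenced. Without it the log2 fold change fell from 0.41 to 0.265.

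Among larvae reared under HypOA, no difference between HH and CH was detectable in either globin, both groups being part of the comparisons used for the selection. Transcripts raised in CH alone or in HH alone were not selected. The values of HH against CH therefore lean towards no difference, and their p values are not independent of the selection. MYG was 0.983-fold as high in HH as in CH, with an interval from 0.424 to 2.28 (edgeR FDR=0.990, exact permutation p=0.929). CYGB2 was 1.055-fold as high, with an interval from 0.800 to 1.39 (edgeR FDR=0.889, exact permutation p=0.608). In this comparison 0.0174% of genes were called and 14.4% had an unadjusted p under 0.05. The MYG interval leaves room for differences of more than 2-fold either way, whereas that of CYGB2 is narrower. Scaling to total counts without TMM factors moved the median gene by 0.1346 on the log2 scale here and turned the MYG value from -0.02 to 0.111.

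The rearing response of larvae from HypOA parents minus that of larvae from control parents was -0.61 on the log2 scale for MYG (SE 0.92, 95% interval -2.50 to 1.28). For CYGB2 it was -0.33 (SE 0.28, -0.90 to 0.24). Both values were negative because the HC means lay above the CC means while the HH and CH means were closer together. This difference was not tested, since it contains the CH and CC larvae whose contrast chose the transcripts. Selection for low CC and high CH values leans it below 0, and selection for high HH values leans it above. Nothing is therefore read from its sign.

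**Figure D2:**
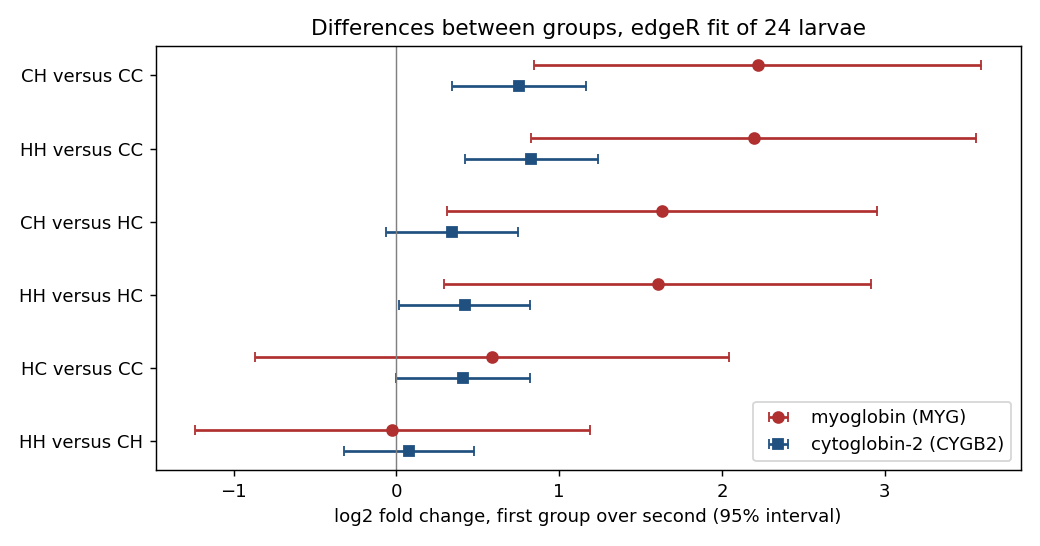
Log2 fold changes of MYG and CYGB2 with 95% intervals from the edgeR fit of all 24 larvae, for each comparison of 2 groups. In HH versus HC the interval of MYG runs from 0.29 to 2.92 around 1.61, and the intervals of MYG are wider than those of CYGB2 in every comparison.

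Larvae of the same group differed far more in MYG than in CYGB2. The coefficient of variation of MYG was 113% in CC, 100.3% in HC, 54.9% in HH and 49.7% in CH larvae. Counting error alone would give 33.65%, 28.5%, 15.1% and 16.5%. The spread within each group thus exceeded counting error by more than 3 times. The biological coefficient of variation fitted by edgeR was 0.765 for MYG, where the trend at its abundance was 0.361. Its within-group standard deviation on the log2 scale, 1.17, was higher than that of 98.9% of tested genes, and 7.19% of genes had a lower mean.

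CYGB2 varied less between larvae. Its coefficient of variation was 34.4% in CC, 23.4% in CH, 17.15% in HH and 10.5% in HC larvae, against 12.75%, 9.94%, 8.90% and 11.1% from counting error. In HC larvae the spread was therefore no larger than counting error. Its fitted biological coefficient of variation was 0.222, below the trend of 0.270, and 55.8% of tested genes had a lower within-group standard deviation.

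**Figure D3:**
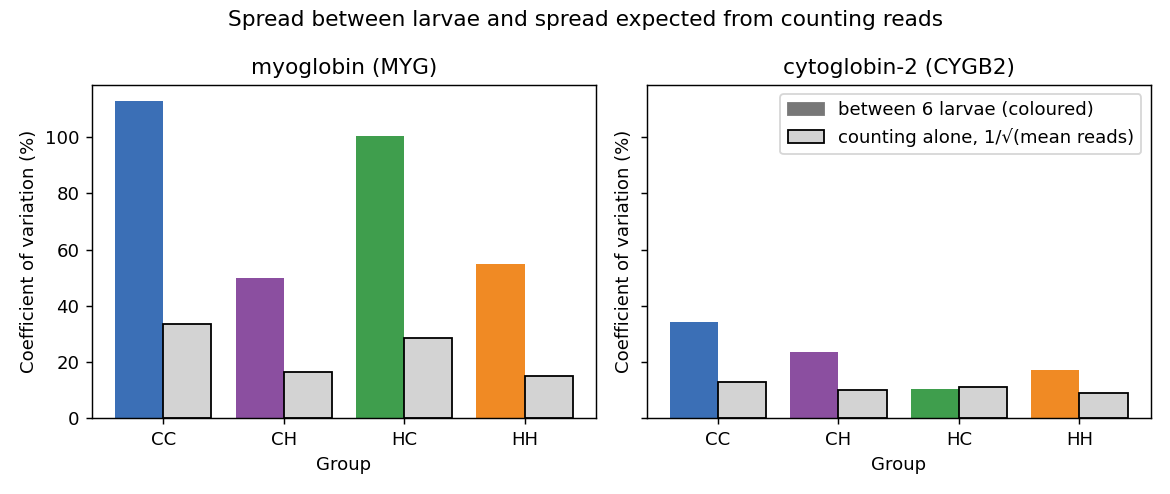
Coefficient of variation between the 6 larvae of a group, in percent, for MYG and CYGB2, beside the part that counting error alone would give. For MYG it is 113% in CC and 49.7% in CH, and for CYGB2 it lies between 10.5% (HC) and 34.4% (CC).

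Whether larvae with more MYG also had more CYGB2 was examined on deviations from the group means of log2 CPM, so that differences between groups did not enter. Across the 24 larvae Pearson's r was -0.214 (p=0.394 over 100000 permutations within groups, adjusted p=0.932) and Spearman's rho -0.21 (permutation p=0.364, adjusted p=0.962). The 2 globins thus showed no detectable relation within groups, although both were higher in HypOA-reared larvae. Without the larvae farthest from the median MYG, CC 4 and HC 1, r was -0.323, and without CC 6 alone it was -0.45 (permutation p=0.039, not adjusted). By group it was -0.00506 for CC, -0.776 for CH, -0.56 for HC and -0.00109 for HH. This was 1 of 25 such relations, over which p values were adjusted.

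Since myoglobin is a muscle protein, it was set beside a list of 27 striated muscle transcripts. The genes of this and all other lists used here had been called in CH versus CC by the study, since the readable symbols come from such genes. The summed level of that list was 5540 to 8297 CPM in CC and 2482 to 4901 CPM in CH larvae, and 3529 to 7467 CPM in HC and 2677 to 6006 CPM in HH larvae. MYG thus had its higher values in the groups in which the muscle list had its lower ones, and the part of the list in the MYG values was not tested. All 27 genes were called down in CH versus CC, the comparison behind their symbols, so nothing is read from this contrast with MYG. None of the 27 was at 0 in every larva of a group. Within groups MYG showed no detectable relation to the list (r=0.122, permutation p=0.577, adjusted p=0.932, and rho=0.0635, permutation p=0.772, adjusted p=0.962), and without CH 4 and HH 3, the larvae farthest from its median, r was -0.0201. In HH versus HC 0 of the 27 were called by edgeR, beside 0.0232% of all genes. Their median log2 fold change was -0.29 against 1.61 for MYG. The ends of the list were MYMK, a membrane protein of myoblast fusion, at -1.67 (FDR=0.0813) and TITIN, the molecular spring of the sarcomere, at 0.27.

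CYGB2 was set beside lists for the cell types in which cytoglobins are known. Summed levels of 16 neuronal transcripts were 690 to 1034 CPM in CC, 936 to 1167 in HC, 1136 to 1358 in CH and 1130 to 1469 in HH larvae. Summed levels of 20 fibroblast and matrix transcripts ran from 4481 to 11430 CPM in CC, 3917 to 6134 in HC, 3051 to 4637 in CH and 2475 to 4941 in HH larvae. The neuronal list was therefore higher in the groups where CYGB2 was higher, and the matrix list lower. These genes could be listed because they were called in CH versus CC, all 16 neuronal genes up and all 20 matrix genes down. CYGB2 was chosen on the same larvae, so nothing is read from this likeness. The part of the lists in the CYGB2 values was not tested. No gene of either list was called in HH versus HC, HC versus CC or HH versus CH. Of all genes 0.0232%, 0% and 0.0174% were called there.

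Within groups, CYGB2 and the matrix list had a negative relation. This relation was not planned, and its adjusted p, close to 0.05, changed sides with single larvae left out. It had an r of -0.682 (permutation p=0.00185, adjusted p=0.0462) and a rho of -0.661 (permutation p=0.00262, adjusted p=0.0655), so it passed the adjustment by r and missed it by rho. With each larva left out in turn, the adjusted p of r lay between 0.00775 and 0.138 and was above 0.05 in 19 of 24 cases, by permutation with the other relations kept as they were. Without CC 3 and HH 6, the larvae farthest from the list's median, r was -0.766. It was negative in each group, lowest in CH (-0.981) and highest in HC (-0.366), with -0.688 in CC and -0.63 in HH. Of the 20 genes 19 had a negative r with CYGB2, from CO1A2, a chain of type I collagen, at -0.708 to SPRC, a collagen-binding matrix glycoprotein, at 0.0806. Across genes, which are not independent replicates, the median was -0.57, beside 0.0203 over all other tested genes. All 20 had been called in CH versus CC, against 9.25% of all genes, so these sets are unlike. Other genes called there were not compared as a set.

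With the neuronal list, a relation also not planned, the sign was the opposite. Within groups r was 0.602 (permutation p=0.0141, adjusted p=0.138) and rho 0.592 (permutation p=0.00642, adjusted p=0.0802), so the relation did not pass the adjustment. Without CC 5 and HH 6 r was 0.534. It was 0.843 in CC, 0.773 in HC and 0.539 in HH, but -0.269 in CH. The neuronal and matrix relations share the CYGB2 values of the same larvae, and how the lists relate to each other was not computed. These relations are therefore not read as separate results. All 16 genes, which are not independent replicates, had a positive r with CYGB2, as had 9104 of the 17261 other tested genes. The values of the list ran from 0.13 for RIMS1, a presynaptic scaffold protein, to 0.64 for NEUM, a growth cone protein. Their median was 0.425, beside 0.0203 over all other tested genes. These sets too are unlike, since all 16 had been called in CH versus CC, against 9.25% of all genes. With the number of counted reads CYGB2 had a negative r (r=-0.577, permutation p=0.0166, adjusted p=0.138, and rho=-0.381, permutation p=0.0835, adjusted p=0.559). That relation rested on CC 1 and HH 2, without which r was -0.208.

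**Figure D4:**
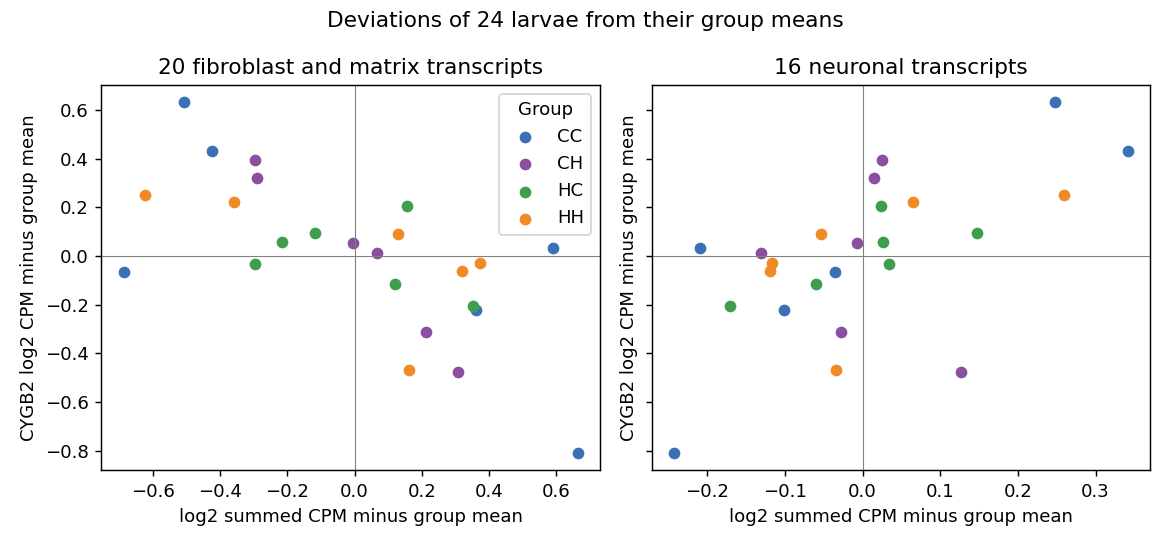
Deviations of CYGB2 from its group mean (log2 CPM) against those of the summed fibroblast and matrix list (left) and of the neuronal list (right) in the 24 larvae, by group. CYGB2 was lower in larvae with more of the matrix list (r=-0.682, which passed the adjustment over 25 relations in the full set and missed it in 19 of 24 sets with a larva left out) and higher in larvae with more of the neuronal list (r=0.602, which missed the adjustment).

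The other 4 globins with a symbol are hemoglobin subunits, which carry oxygen in red cells. Neuroglobin, which the study reports as raised against CC in HH but not in CH larvae, is not among them. Their counts are uncertain where near-identical copies share reads. HBB (mme15344) was at 0.555±0.183 CPM in HC and 4.53±2.21 in HH larvae, and at 1.39±1.08 in CC and 16.7±14.6 in CH. HBBA was annotated at mme15342, with 1.43±1.07 CPM in HC and 11.98±6.70 in HH, and at mme15343, with 2.95±2.26 and 36.1±22.6. These beta subunits did not overlap between HH and HC, as did 0.938% of all genes, whereas MYG and CYGB2 overlapped.

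In HH versus HC the log2 fold changes were 3.02 for HBB (SE 0.69, edgeR FDR=0.131), 3.06 (SE 0.60, FDR=0.0712) and 3.62 (SE 0.72, FDR=0.0712) for the HBBA transcripts and 0.48 for the alpha subunit HBAD (mme16843, SE 0.25, FDR=0.668). The 1.61 of MYG lay between HBAD and the beta subunits, and the 0.42 of CYGB2 was close to HBAD. None of these 6 globins was called in HH versus HC, a call that 0.0232% of all genes received. Over all 24 larvae MYG correlated with HBB, both HBBA and HBAD at 0.533, 0.541, 0.597 and 0.547, values that hold the differences between groups. As deviations from the group means the same values were 0.0332, 0.0289, 0.0877 and 0.154. CYGB2 gave 0.321, 0.464, 0.524 and 0.285 over all larvae and -0.236, -0.0716, 0.098 and -0.42 as deviations. Neither globin showed a detectable relation to the summed hemoglobins within groups (MYG r=0.101, permutation p=0.654, CYGB2 r=-0.018, permutation p=0.945, adjusted p=0.932 and 0.945).

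The remaining lists cover heme supply, iron, and the pathways with which these globins are linked. The 4 genes of heme synthesis and red cells had a median log2 fold change of 0.41 in HH versus HC, beside -0.00184 over all genes. They ran from HEM1 at 0.17 to HEM0, the erythroid enzyme of the first step of heme synthesis, at 0.91. Of these, 0 of 4 were called, beside 0.0232% of all genes. Of the 5 genes listed under iron and iron-sulfur, all below 0 with a median of -0.56, ISCU, the scaffold of iron-sulfur cluster assembly, fell (-1.29, edgeR FDR=5.64e-06). Their range ran from HEPC, the iron hormone hepcidin, at -2.35 to SFXN1 at -0.19.

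The 3 nitric oxide and cGMP genes, of which GCYA2 encodes a subunit of the nitric oxide receptor, lay between 0.25 (PDE2A) and 0.46 (GCYA2) in HH versus HC, and 0 of 3 were called. Of 3 antioxidant genes, the peroxiredoxin PRDX5 (-1.03, edgeR FDR=9.71e-06) and the superoxide dismutase SODC (-0.52, edgeR FDR=0.0143) fell, while GPX3 was at 0.15. Of the 3 genes listed under the respiratory chain, not all of them chain subunits, CX6B1, a subunit of cytochrome c oxidase, rose (1.24, edgeR FDR=0.0317). NNTM was lowest at -0.14. ISCU, PRDX5, SODC and CX6B1 are the only 4 genes called in HH versus HC, 0.0232% of all genes. The lists were chosen with earlier results of these data known, so nothing is read from their holding all 4. The 9 glycolysis and hypoxia genes ran from -0.04 (PFKAM, phosphofructokinase) to 0.92 (LYOX at mme13192, a collagen cross-linking enzyme) with a median of 0.32 and 0 of 9 called. LYOX was also annotated at mme08651, which was lower. The neuronal list had a median of 0.28, from STMN4 at 0.04 to GRIA4 at 0.48, and the matrix list one of -0.32, from COCA1 at -0.84 to PGS2 at -0.04.

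In HC versus CC and in HH versus CH no gene of any list was called, where 0% and 0.0174% of all genes were called. The neuronal list had medians of 0.34 and 0.02, the matrix list of -0.67 and 0.14 and the striated muscle list of -0.40 and 0.21. CYGB2 itself was at 0.41 and 0.08, and MYG at 0.59 and -0.02.

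The transcripts most like MYG over the 24 larvae, by Pearson's r of log2 CPM among 15193 genes with a mean of at least 1, were TNR6C (mme18617, 0.779), SCN8A (mme03377, 0.733), KANK4 (mme09121, 0.717), MACOI (mme15705, 0.717) and PTPRE (mme05504, 0.714). As deviations from the group means the most alike were mme03863 (0.782), mme04516 (0.77), mme17584 (0.735), mme09850 (0.716) and mme14786 (0.714), which have no symbol here. None appeared in both sets of 5. For CYGB2 the leading transcripts over all larvae were TAOK3 (mme11406, 0.847), TT39C (mme08775, 0.846), mme13600 (0.842), LRRC4 (mme17294, 0.841) and FOXB1 (mme02182, 0.838). As deviations they were mme13600 (0.801), mme14748 (0.784), mme08807 (0.761), mme11313 (0.726) and mme16336 (0.725). The unnamed mme13600 stood in both sets for CYGB2. CYGB2 and MYG correlated with each other at 0.39 over all larvae, a value exceeded by 1152 genes for MYG and by 2262 genes for CYGB2. These correlations share libraries and group differences and are descriptions of these larvae.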

How the data were processed

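For each of 24 larvae the authors deposited counts of reads per transcript, made with HTSeq-count 0.11.1 after alignment with STAR 2.6.1d to a published genome of the species. The submitters' notes name Trimmomatic for trimming and the paper's methods Fastp, and the genome's build name and the counting options are not stated there. The values are whole numbers without normalization, on 20651 entries that were summed to 20210 genes. MYG and CYGB2 have 1 entry each. Reads not assigned to a transcript, 26.7% on average, stayed out of library sizes. Unused per-sample columns numbered 0. The count files used here hold IDs without names, so symbols were taken from the study's table of differentially expressed transcripts, of which 1299 rows could be read. The members and lists were chosen with earlier results of these data known.

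The filterByExpr filter, run with the groups, a minimum count of 10 and a minimum total of 15, kept 17262 genes, which were then scaled by TMM factors. All 24 larvae entered an edgeR 4.0.16 quasi-likelihood fit in which each group had its coefficient, in R 4.3.3 (legacy form of glmQLFit, glmQLFTest), with Benjamini-Hochberg adjustment at 0.05 over all genes. The SE is the size of the log2 fold change over the root of F, and intervals cover 95%. Log2 CPM carried a prior count of 2, and CPM themselves none. Single transcripts were compared by two-sided exact permutation tests on log2 CPM, and relations between measures by 100000 permutations within groups, adjusted over 25 relations. Of these relations, that of MYG to CYGB2 was the planned one. The lowest count, 0 MYG reads in CC 4, allows up to 3.69 reads at the upper end of a 95% interval. In that larva 1 read was 0.0784 CPM. Such limits cover counting error only.

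Named were both members, the 4 other globins, the 5 genes most correlated with each member over all larvae and as deviations from group means (mean log2 CPM of at least 1), and, in the other lists, each gene called in HH versus HC, HC versus CC or HH versus CH and the extremes of HH versus HC. RIMS1, NEUM, CO1A2 and SPRC, the ends of 2 lists in their relation to CYGB2, were added after their values were seen. Alternatives were DESeq2 1.42.0, limma-voom (limma 3.58.1), other scaling and filters, a fit of the compared groups only, a prior count of 0.25, a replicate block and each larva left out. No pair of larvae in a group agreed within sampling noise. The code was tested on simulated counts with 200 genes changed.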

Additional observations from a re-analysis of the deposited data

Results flagged for a closer look

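In 40 checks of a group of 6 larvae for a single distant value, which chance flags in about 5% of groups, 1 was found. In CC larvae the hemoglobin subunit HBBA at mme15342 was lowest in CC 2, at -1.7 log2 CPM, with a gap to the next larva of 0.712 of the group's range. No larva stood apart in this way in MYG or CYGB2.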

How the results depend on the processing

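Of 139 values under other settings, larvae left out not counted, 136 kept their direction and, where there was a test, their side of its threshold (62 of 65), an FDR of 0.05 for comparisons and an unadjusted p of 0.05 for relations. The difference in MYG between HH and CH turned to 0.111 with scaling to total counts and lay between -0.241 and 0.216 with each larva left out. That in CYGB2 lay between -0.007 and 0.166. The relation of MYG to CYGB2 within groups turned from -0.214 to 0.011 with a replicate block (p=0.966 by permutation) and lay between -0.45 (without CC 6, permutation p=0.039) and -0.018 (without CC 1) with each larva left out. The relation of CYGB2 to the neuronal list, at 0.602, was 0.441 with the block (permutation p=0.0677) and 0.511 without CC 6 (permutation p=0.0527). That to the matrix list was -0.553 with the block (permutation p=0.0205, adjusted p=0.171 against 0.0462) and -0.771 to -0.606 with each larva left out (permutation p up to 0.0098, adjusted p above 0.05 in 19 of 24 cases). The alternatives for the relations to these lists were chosen after seeing the data. The cause of these changes was not tested.

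With each larva left out, the log2 fold change in HH versus HC lay between 1.37 and 2.05 for MYG and between 0.368 and 0.504 for CYGB2, and in HC versus CC between 0.149 and 1.15 and between 0.265 and 0.545, and no edgeR call was gained. Larvae of the same number in different groups deviated together, above a correlation of 0.1, in 5 of 36 pairs (-0.326 to 0.295). Their mean was 0.131 between CH and HC, against -0.0262 for larvae of unlike number, and at most 0.00229 between other groups. In the study each rearing container held offspring of a single parental treatment under a single rearing condition, so larvae of different groups shared none. The labels do not say what the number stands for, and this was not tested. With the replicate block MYG was at 1.66 (edgeR FDR=0.559) and CYGB2 at 0.428 (FDR=0.549) in HH versus HC. A filter without groups removed MYG, as did a fit of HC and CC alone, and gave no value. At 0 to 27 reads per CC larva, counting error gives a coefficient of variation of 33.65% in MYG, beside 113% between larvae.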
